A study of Mus musculus with 15 samples.

Results

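Ribosome biogenesis genes, 48 in all, were followed through knockdown of 4 large-subunit ribosomal proteins in mouse embryonic stem cells. The set was taken by gene symbol. It holds 7 genes of RNA polymerase I transcription, 8 of small nucleolar ribonucleoproteins (snoRNPs), 4 nucleolar proteins with several roles, 12 factors of 40S (small subunit) assembly and 17 factors of 60S (large subunit) assembly. All 48 were among the 24819 genes of the deposited tables, and all 48 passed the filter on low values, which 12249 genes passed. Cells were E14, a mouse embryonic stem cell line. They were grown on gelatin in serum with leukemia inhibitory factor, and transfected with siRNA by DharmaFECT, per the labels' protocols. The 5 groups were siNT (the control, read here as a non-targeting siRNA) and siRpl11, siRpl14, siRpl18 and siRpl23 (siRNA against the gene named), with no genetic alteration named in the labels and 3 libraries each. Knockdown lasted 48 h by the sample titles but 3 days by the treatment protocol, and which of these holds was not settled. A knockdown by siRNA leaves part of the transcript in place, and the labels do not say how many different siRNAs were used per gene.

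Ribosome production starts in the nucleolus, where RNA polymerase I transcribes a long precursor of the rRNAs. Box C/D and box H/ACA snoRNPs guide methylation and pseudouridylation of this precursor, and further factors cleave and fold it into pre-40S and pre-60S particles, which mature on the way to the cytoplasm. Embryonic stem cells divide fast and produce many ribosomes. Rpl11, with Rpl5 and the 5S rRNA, forms a particle that can also bind the p53 inhibitor Mdm2, and Rpl23 has been reported to bind Mdm2 as well. Rpl14 and Rpl18 are known mainly as building blocks of the 60S subunit.

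Many genes of this pathway are known targets of Myc, which binds the E-box CACGTG, so the start regions of the members were searched for these letters. RefSeq promoter windows on GRCm38.p6, 300 bases long (250 before to 50 after the annotated start), were found for 41 of the 48 members, and Npm1, Bop1, Rrp12, Rrs1, Fbl, Gnl3l and Tcof1 had no entry. The motif reads the same on both strands, so both were searched at once, and no other motif was searched. It was found for 11 of the 41 members (26.8%) and for 1170 of the 9591 genes tested that had a window (12.2%). Over all genes with a window it was found for 2187 of 27025 (8.09%). A gene was counted if any of its windows held the motif. Shown are 30-base stretches, on the strand of the gene, from the 4 members with the largest rise in siRpl11 among those with the motif, which is in capitals.
Tsr1: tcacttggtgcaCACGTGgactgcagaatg
Mybbp1a: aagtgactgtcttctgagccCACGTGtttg
Utp20: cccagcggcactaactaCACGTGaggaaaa
Wdr43: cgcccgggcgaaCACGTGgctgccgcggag
On GRCm38.p6 these lie at chr11:74898092-74898121 (plus strand) for Tsr1, chr11:72441347-72441376 (plus strand) for Mybbp1a, chr10:88826765-88826794 (minus strand) for Utp20 and chr17:71616220-71616249 (plus strand) for Wdr43. The motif begins 24, 40, 37 and 17 bases after the annotated start of transcription, in that order. Of the 11 members with the motif, 9 rose and 1 fell in siRpl11 (the values follow). Of all 48 members 72.9% rose and 10.4% fell there, beside 27.3% and 43.6% of all genes tested. The median log2 fold change was 0.34 with the motif and 0.30 over the 30 members without it. Whether the motif had a part in these changes was not tested. A match is a run of letters and no measured binding.

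Values are FPKM, which counts the fragments per kilobase of transcript relative to the size of the library and so is scaled to transcript length. How the libraries of a table were scaled to each other is not given in the sources used here. Replicates 1 and 2 of every group shared 1 table (10 libraries) and entered the tests, with n = 2 per group. The third libraries came in a table normalized on its own (5 libraries), and their differences are given as values with no test. FPKM keeps no total count, so the depth is not known in reads. Taking the siNT library numbered 1, or the siNT library of the second table, as 1, the other libraries of each table had depths of 0.698 to 1.40 and of 1.04 to 1.30. The targeted transcript stood at 24% of siNT for Rpl11, 51.6% for Rpl14, 32.6% for Rpl18 and 36.3% for Rpl23 in replicates 1 and 2, and the second table had it at 19.9% to 38.5%, so every label held. All 8 stem cell markers were present in all 15 libraries (Pou5f1 at 737 to 1490 FPKM), and their sum was 6867 to 7959 FPKM in siNT, 6148 to 6585 in siRpl11 and 5018 to 6020 over the other knockdowns. The 8 fibroblast or feeder markers summed to 16.7 to 20.3 FPKM in siNT, 4.18 to 6.90 in siRpl11 and 7.77 to 11.5 over the other knockdowns, with Dcn and Lum at 0 in all 15 libraries. Thy1 alone made up most of that sum (3.68 to 18.9 FPKM), and each of the other 7 reached at most 1.64 FPKM. Both sums moved with the groups, and their part in the results was not tested.

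In siNT cells all 48 members lay above the median level of the genes tested (10.3 FPKM), with a median of 64.9 FPKM. Npm1, the nucleolar chaperone nucleophosmin, was highest at 1518 FPKM, followed by Ncl, nucleolin, at 383 FPKM. The lowest were Polr1e, a subunit of RNA polymerase I, at 12.2 FPKM, and Rrp12, an export factor of ribosomal precursors, at 23.3 FPKM. Npm1 has many processed pseudogenes, and how the authors' counting treated reads shared with them is not given in the sources used here, so its level is uncertain.

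Knockdown of Rpl11 was accompanied by higher levels of most of the 48 genes: 35 rose, 5 fell and 8 did not pass the test against siNT (limma on log2(FPKM + 1), adjusted p under 0.05 over all 12249 genes). The genes with the largest rise were Nop58, Rrp12, Polr1a, Tsr1 and Rrs1, at 1.68-fold to 2.25-fold the siNT level, and the falls of Rrp1, Tcof1, Nolc1, Rrp1b and Sdad1 were smaller (log2 fold changes of -0.41 to -0.11). Of all genes tested, 27.3% were called higher and 43.6% lower in the same comparison, against 72.9% and 10.4% of the members. The median log2 fold change was 0.32 over members and -0.11 over all genes tested. A rise of at least 1.5-fold was called in 11 members (7.34% of all genes), and a fall of that size in 0 members (18.6% of all genes). These are levels relative to all transcripts measured in bulk cells, so fewer cells of a type and less RNA per cell cannot be told apart. Of the 40 calls, 34 held under every alternative run (33 higher and Rrp1 lower), and Tcof1, Nhp2, Nolc1, Rrp1b, Sdad1 and Nip7 did not. Scaling libraries to equal quantiles or by median ratios raised the median over all genes by 0.13 and 0.15, and the share of higher calls among all called genes went from 38.5% to 51.3% and 54.7%. The members' median stood 0.43 above that of all genes without scaling, and 0.28 and 0.45 above it with each scaling. Under median-ratio scaling 39 members were called higher and 1 lower. Of the 12249 genes tested, 4832 were called higher and 3997 lower in that fit, from 3342 and 5343 without scaling. In the third libraries 33 of the 35 risen members were also above siNT (not Utp15 and Nip7), the 5 that fell were below it, and the median was 0.22 over members and -0.09 over all genes.

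With the other knockdowns fewer members rose and the members' medians were lower. In siRpl14, 21 members rose and 8 fell, beside 33.3% of all genes higher and 29.5% lower. In siRpl18, 19 rose and 13 fell, beside 32.8% and 34.7%, and in siRpl23, 23 rose and 7 fell, beside 34.9% and 30.8%. As shares of the members these were 43.8% and 16.7%, 39.6% and 27.1%, and 47.9% and 14.6%, with median log2 fold changes of 0.06, 0.06 and 0.12 against 0.02, -0.02 and 0.02 over all genes. Rises of 1.5-fold or more were called in 2, 4 and 2 members (11.3%, 12.2% and 12.4% of all genes), and falls of that size in 0 members (8.11%, 11.1% and 9.29%). In the third libraries the member medians were -0.04, -0.0013 and -0.06, against 0.04, -0.02 and 0.01 over all genes, so in siRpl14 and siRpl23 the members lay below all genes there and above them in the first table. Of the risen members, 17 of 21, 15 of 19 and 15 of 23 were above siNT in these libraries, while all 8, 13 and 7 fallen members were below it. With all 15 libraries and a term for the table, 16, 15 and 15 members rose (33.3%, 31.2% and 31.2%) and 12, 13 and 12 fell (25%, 27.1% and 25%). Of all genes 33.9%, 31.8% and 33.8% were higher and 28.1%, 34.1% and 30.3% lower in that fit, so the share of members that rose was no larger than that of all genes. With equal quantiles, 22 members rose and 12 fell in siRpl23. Of the 12249 genes tested, 3856 were higher and 4335 lower in that fit, from 4277 and 3776 without this scaling. All of these comparisons share the siNT libraries.

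**Figure D1:**
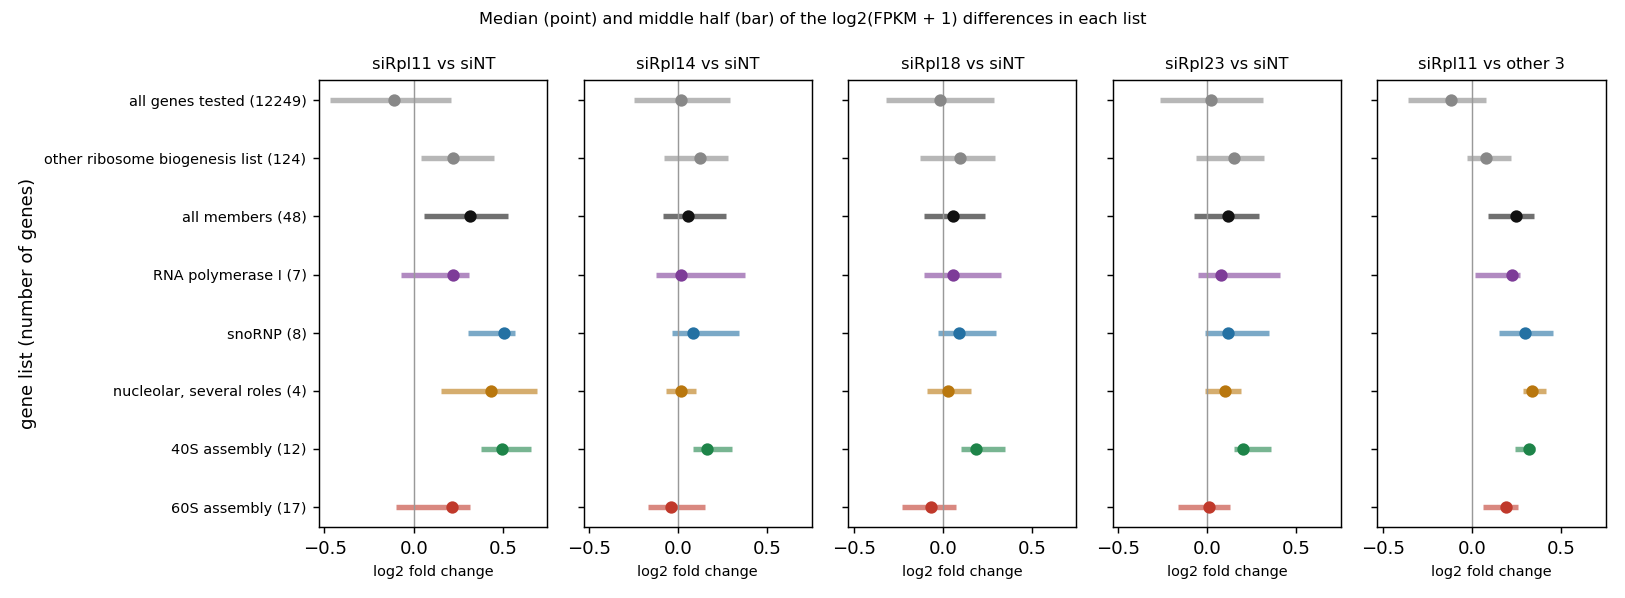
Points are the median and bars the range between the quartiles of the log2(FPKM + 1) differences (horizontal axis) in each gene list (vertical axis), with 1 panel for each knockdown against siNT and 1 for siRpl11 against the other 3 knockdowns. In siRpl11 against siNT the median of the 48 members is 0.32 and that of all 12249 genes tested is -0.11.

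Of the 7 genes of RNA polymerase I transcription, 4 rose and 1 fell in siRpl11 (57.1% and 14.3%, beside 27.3% and 43.6% of all genes; median log2 fold change 0.22). In the others, 3 rose and 2 fell in siRpl14 (0.02), 3 rose and 3 fell in siRpl18 (0.06), and 3 rose and 1 fell in siRpl23 (0.08). These are 42.9% higher and 14.3% to 42.9% lower, beside 32.8% to 34.9% and 29.5% to 34.7% of all genes, and with 7 genes such shares say little about the role. Polr1a, which encodes the largest subunit, was at 36.8 and 35.9 FPKM in siNT, 67.7 and 67.5 in siRpl11, 55.0 and 53.9 in siRpl14, 54.4 and 56.2 in siRpl18 and 55.3 and 54.6 in siRpl23. All 8 knockdown libraries lay above both siNT libraries and the siRpl11 pair was highest, as in the second table (41.2, 64.8, 55.4, 56.6 and 53.3 FPKM in the same order of groups). Its log2 fold change was 0.88 ± 0.04 (SE, adjusted p = 5.4e-08) in siRpl11 and 0.57 ± 0.04, 0.59 ± 0.04 and 0.58 ± 0.04 in siRpl14, siRpl18 and siRpl23, so it rose in every knockdown. Polr1b, the second largest subunit, was at 42.3 and 40.04 FPKM in siNT, 52.1 and 50.7 in siRpl11, 39.4 and 38.4 in siRpl14, 38.1 and 37.8 in siRpl18 and 41.6 and 39.9 in siRpl23. It rose in siRpl11 by 0.31 ± 0.04 (adjusted p = 0.000104) and was -0.08 ± 0.04 in siRpl14 (adjusted p = 0.142) and -0.01 ± 0.04 in siRpl23 (adjusted p = 0.794). In siRpl18 it was -0.11 ± 0.04 (adjusted p = 0.0397), a call lost without siNT replicate 1, either siRpl11 library or either siRpl18 library (adjusted p = 0.0551 to 0.215).

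Polr1e, a subunit also known as PAF53, had another pattern. Its levels were 11.6 and 12.8 FPKM in siNT, 11.7 and 11.4 in siRpl11, 17.3 and 18.6 in siRpl14, 16.2 and 17.1 in siRpl18 and 19.3 and 17.8 in siRpl23. Polr1e was at 7.78, 8.34, 15.4, 12.8 and 15.4 FPKM in the second table. The siRpl11 libraries lay with the siNT libraries and the other 6 knockdown libraries above both, with no overlap in the first table, and the second table had the same order. The log2 fold change was -0.07 ± 0.07 in siRpl11 (adjusted p = 0.359), and Polr1e rose by 0.53 ± 0.07 in siRpl14, 0.42 ± 0.07 in siRpl18 and 0.57 ± 0.07 in siRpl23 (adjusted p = 6.84e-05, 0.000258 and 3.5e-05). Polr1c, a subunit shared with RNA polymerase III, rose in siRpl11 by 0.30 ± 0.05 (adjusted p = 0.000375) and had log2 fold changes of 0.02 ± 0.05, 0.06 ± 0.05 and 0.08 ± 0.05 in the others, which did not pass. Rrn3, the initiation factor TIF-IA that brings the polymerase to the rDNA promoter, rose in every knockdown, by 0.22 ± 0.04, 0.22 ± 0.04, 0.23 ± 0.04 and 0.24 ± 0.04 (adjusted p = 0.000387, 0.000527, 0.000302 and 0.000224).

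Ubtf, the rDNA-binding factor UBF, was at 67.0 and 69.0 FPKM in siNT, 65.5 and 63.8 in siRpl11, 60.8 and 59.9 in siRpl14, 62.2 and 64.5 in siRpl18 and 63.6 and 64.0 in siRpl23. Ubtf was at 81.1, 83.4, 69.7, 80.2 and 75 FPKM in the second table. It fell in siRpl14 (-0.17 ± 0.04, adjusted p = 0.00335), while siRpl11 and siRpl23 were at -0.07 ± 0.04 and -0.09 ± 0.04 and did not pass. In siRpl18 the value was -0.10 ± 0.04 (adjusted p = 0.0401), a call lost with all 15 libraries (adjusted p = 0.132) and without any of 9 single libraries (0.0502 to 0.191, the exception being siRpl18 replicate 2). Tcof1, the nucleolar protein treacle that works with UBF, was at 51.6 and 46.6 FPKM in siNT, 43.2 and 41.4 in siRpl11, 39.8 and 36.5 in siRpl14, 35.1 and 33.8 in siRpl18 and 36.5 and 34.9 in siRpl23, with every knockdown library below both siNT libraries. Tcof1 was at 63.3, 55.3, 45.7, 47.6 and 46.4 FPKM in the second table, with siNT again highest. It fell in siRpl14, siRpl18 and siRpl23, with log2 fold changes of -0.35 ± 0.06, -0.50 ± 0.06 and -0.45 ± 0.06 (adjusted p = 0.000522, 4.31e-05 and 9.98e-05). In siRpl11 it was -0.21 ± 0.06 (adjusted p = 0.00984), a call lost without siNT replicate 1 (-0.14, adjusted p = 0.0891), without siRpl11 replicate 2 (-0.18, adjusted p = 0.0668), with no filter (adjusted p = 0.051) and under median-ratio scaling (-0.03).

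**Figure D2:**
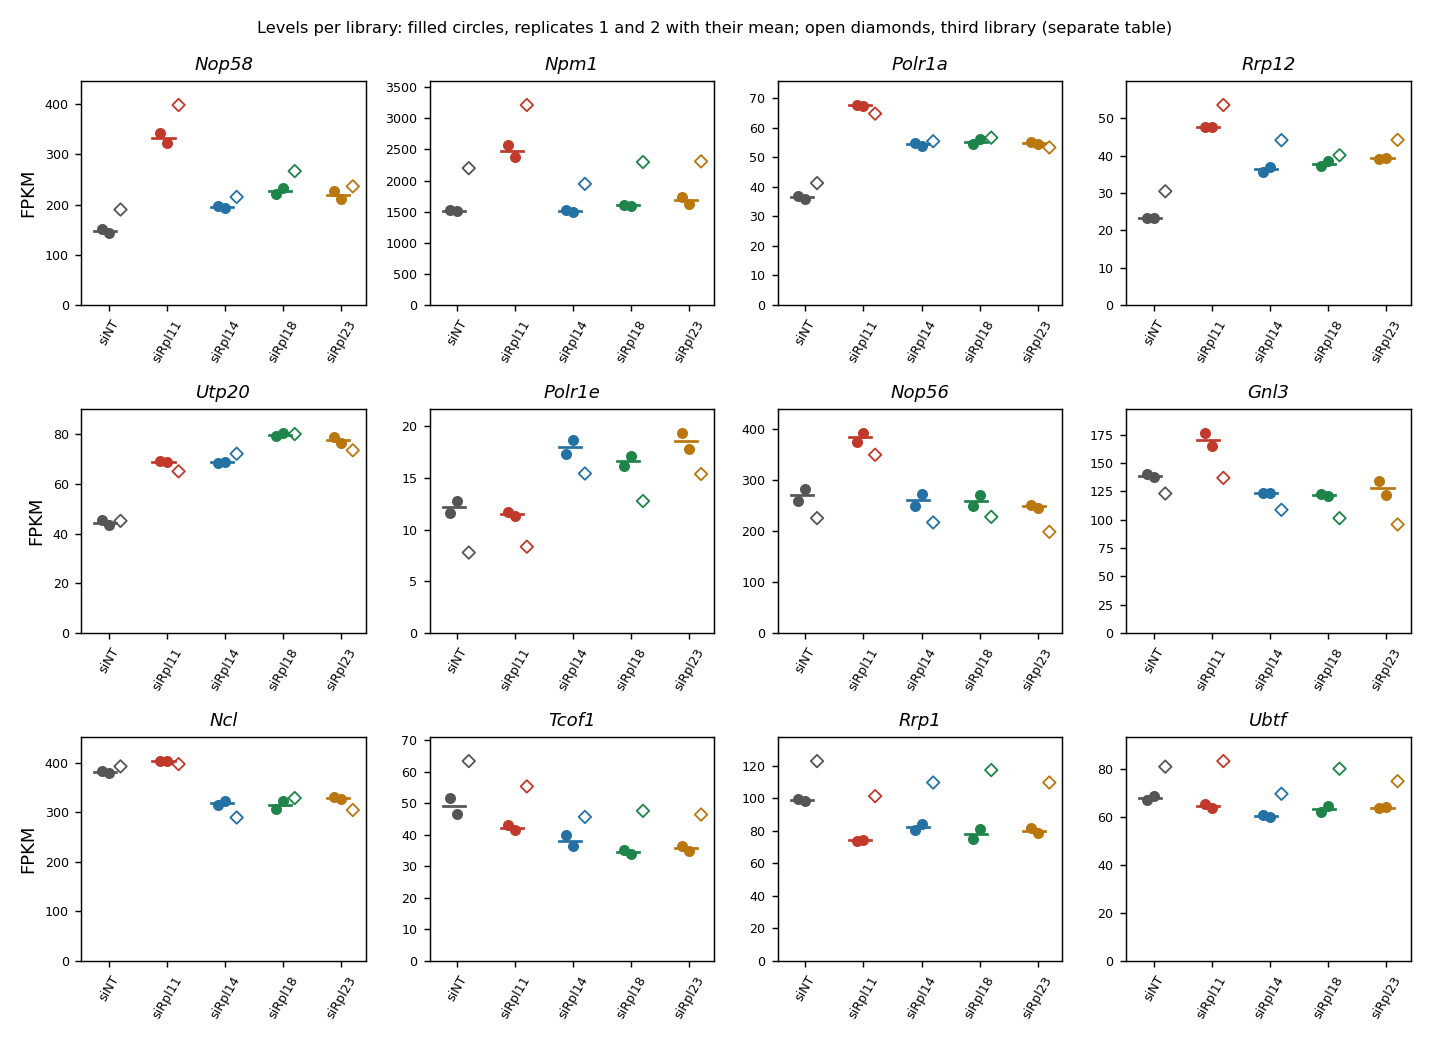
FPKM (vertical axes, from 0) of 12 members in every library, by group; filled circles are replicates 1 and 2, the line is their mean, and open diamonds are the third libraries, from the table normalized separately. Nop58 and Rrp12 are highest in siRpl11, Polr1e in siRpl11 lies with siNT, and Tcof1 is highest in siNT.

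Most genes of the snoRNPs rose in siRpl11, 7 of 8 (87.5%, beside 27.3% of all genes), and Nolc1 fell (median 0.50). In siRpl14 and siRpl23, 4 rose and 1 fell (0.09 and 0.12), and in siRpl18, 3 rose and 1 fell (0.09). Shares higher were 50%, 37.5% and 50% in siRpl14, siRpl18 and siRpl23, beside 33.3%, 32.8% and 34.9% of all genes. Lower was 1 of 8 in each knockdown, beside 43.6%, 29.5%, 34.7% and 30.8% of all genes in siRpl11, siRpl14, siRpl18 and siRpl23. With 8 genes such shares say little about the role. Nop58, a core protein of box C/D snoRNPs, had the largest rise of the 48 genes in siRpl11. It was at 151 and 144 FPKM in siNT, 343 and 323 in siRpl11, 197 and 194 in siRpl14, 221 and 233 in siRpl18 and 228 and 212 in siRpl23. Nop58 was at 190.2, 399, 215, 267 and 236 FPKM in the second table. The siRpl11 libraries did not overlap any others and siNT was lowest in both tables. The log2 fold change was 1.17 ± 0.05 (2.25-fold, adjusted p = 6.27e-08) in siRpl11 and 0.41 ± 0.05, 0.62 ± 0.05 and 0.57 ± 0.05 in siRpl14, siRpl18 and siRpl23 (adjusted p = 7.99e-05, 3.34e-06 and 6.49e-06). Nop56, its partner in the same particle, was at 259 and 283 FPKM in siNT, 376 and 393 in siRpl11, 250.2 and 273 in siRpl14, 249 and 270.5 in siRpl18 and 252 and 246 in siRpl23. Nop56 was at 226, 350.2, 217, 228 and 199 FPKM in the second table. In the first table the siRpl11 libraries alone stood above both siNT libraries. The log2 fold change was 0.51 ± 0.06 (adjusted p = 4.28e-05), and -0.05 ± 0.06, -0.06 ± 0.06 and -0.12 ± 0.06 in the others did not pass. Fbl, fibrillarin, the methyltransferase of these particles, was at 183 and 187 FPKM in siNT, 266 and 266 in siRpl11, 229 and 231 in siRpl14, 219 and 215 in siRpl18 and 229 and 225 in siRpl23. It rose in all 4 knockdowns, by 0.52 ± 0.04 in siRpl11 (adjusted p = 8.07e-07) and by 0.32 ± 0.04, 0.23 ± 0.04 and 0.30 ± 0.04 in the others. Rrp9, the U3 snoRNP protein, rose in siRpl11 by 0.34 ± 0.03 (adjusted p = 1.23e-05) and was at -0.03 ± 0.03, -0.02 ± 0.03 and 0.03 ± 0.03 in the others, which did not pass.

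Among box H/ACA proteins, Dkc1, the pseudouridine synthase dyskerin, was at 103 and 102 FPKM in siNT, 145 and 145 in siRpl11, 109.6 and 114 in siRpl14, 104 and 106 in siRpl18 and 110.5 and 111 in siRpl23. It rose by 0.50 ± 0.04 in siRpl11 (adjusted p = 1.22e-06; 0.59 in the third libraries) and was 0.03 ± 0.04 in siRpl18 (adjusted p = 0.432). In siRpl14 and siRpl23 it was 0.12 ± 0.04 and 0.11 ± 0.04 (adjusted p = 0.0134 and 0.0231). Both calls were lost with all 15 libraries (adjusted p = 0.25 and 0.372) and without siNT replicate 2 (adjusted p = 0.0605 and 0.091). The first was also lost without siRpl14 replicate 2 (0.0968) and the second without either siRpl23 library (0.0824 and 0.082). Gar1 rose in every knockdown and was at 36.5 and 32.8 FPKM in siNT, 60.4 and 53.8 in siRpl11, 55.0 and 49.7 in siRpl14, 50.3 and 49.1 in siRpl18 and 48.9 and 50.5 in siRpl23. Its log2 fold changes were 0.70 ± 0.07, 0.58 ± 0.07, 0.51 ± 0.07 and 0.51 ± 0.07 (adjusted p = 1.11e-05, 5.61e-05, 0.000119 and 0.000127), and in the third libraries 0.57, 0.13, 0.24 and 0.15. Nhp2 was 0.19 ± 0.07 in siRpl11 (adjusted p = 0.0327), a call lost without siNT replicate 1 (0.12, adjusted p = 0.219), without siRpl11 replicate 2 (0.14, adjusted p = 0.191), with no filter (adjusted p = 0.142) and with equal quantiles (0.10, adjusted p = 0.133). It did not pass in the others (0.05 ± 0.07, 0.14 ± 0.07 and 0.12 ± 0.07).

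Nolc1, the snoRNP chaperone Nopp140, went the other way. It was at 112 and 115 FPKM in siNT, 102 and 103 in siRpl11, 102 and 103 in siRpl14, 89.7 and 96.2 in siRpl18 and 99.7 and 102 in siRpl23, with every knockdown library below both siNT libraries, and at 118, 96.5, 87.1, 89.2 and 82.9 FPKM in the second table. It fell in siRpl18 and siRpl23, with log2 fold changes of -0.29 ± 0.04 and -0.18 ± 0.04 (adjusted p = 0.000153 and 0.00405). In siRpl14 it was -0.15 ± 0.04 (adjusted p = 0.0108), lost without siNT replicate 2 (-0.13, adjusted p = 0.0591). In siRpl11 it was -0.15 ± 0.04 (adjusted p = 0.00817) but 0.03 under median-ratio scaling (adjusted p = 0.518).

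Of the 4 nucleolar proteins with several roles, 3 rose and 0 fell in siRpl11 (median 0.43). These are 75% and 0%, beside 27.3% and 43.6% of all genes. In siRpl14 and siRpl18, 1 rose and 1 fell (0.01 and 0.03), and in siRpl23, 2 rose and 1 fell (0.10). Of all genes 32.8% to 34.9% were higher and 29.5% to 34.7% lower there, and 4 genes say little about the role. Npm1 was at 1527 and 1508 FPKM in siNT, 2573 and 2385 in siRpl11, 1526 and 1501 in siRpl14, 1607 and 1596 in siRpl18 and 1733 and 1626 in siRpl23. Npm1 was at 2198, 3214, 1946, 2297 and 2308 FPKM in the second table. The siRpl11 libraries lay above all others in both tables, with a log2 fold change of 0.71 ± 0.06 (1.63-fold, adjusted p = 2.47e-06). In siRpl14 and siRpl18 it was -0.00 ± 0.06 and 0.08 ± 0.06 and did not pass. In siRpl23 it was 0.15 ± 0.06 (adjusted p = 0.0449), a call lost without any of 6 single libraries (both of siNT, siRpl14 and siRpl23, adjusted p = 0.0519 to 0.276) and with all 15 (0.0579). Mybbp1a, a nucleolar protein that binds Myb and p53, rose in every knockdown, by 0.69 ± 0.04 in siRpl11 (adjusted p = 2.4e-07) and by 0.31 ± 0.04, 0.41 ± 0.04 and 0.31 ± 0.04 in the others. Ncl was at 385 and 380.4 FPKM in siNT, 404 and 403 in siRpl11, 316 and 322 in siRpl14, 307 and 323 in siRpl18 and 331 and 326 in siRpl23. Ncl was at 393, 398, 289.8, 329 and 305 FPKM in the second table. It did not pass in siRpl11 (0.08 ± 0.04, adjusted p = 0.114) and fell in siRpl14, siRpl18 and siRpl23, with log2 fold changes of -0.26 ± 0.04, -0.28 ± 0.04 and -0.22 ± 0.04 (adjusted p = 0.000285, 0.000156 and 0.000861). Ddx21, an RNA helicase, rose in siRpl11 by 0.18 ± 0.04 (adjusted p = 0.00383) and was at 0.03 ± 0.04, -0.02 ± 0.04 and 0.06 ± 0.04 in the others, which did not pass.

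Most factors of 40S assembly rose, but some rises outside siRpl11 depended on the fit. Of 12 genes, 11 rose and 0 fell in siRpl11 (median 0.50). These are 91.7% and 0%, beside 27.3% and 43.6% of all genes. In the others, 8 rose and 0 fell in siRpl14 (0.16), 9 rose and 1 fell in siRpl18 (0.19), and 10 rose and 0 fell in siRpl23 (0.20). These are 66.7%, 75% and 83.3% higher, beside 33.3%, 32.8% and 34.9% of all genes. Lower were 0%, 8.33% and 0%, beside 29.5%, 34.7% and 30.8% of all genes. With all 15 libraries, the rises of Wdr75 and Ltv1 were not called in siRpl14, siRpl18 or siRpl23. Nor were those of Wdr43 in siRpl18 and siRpl23 and of Heatr1 in siRpl23. Utp15 was called lower in siRpl14 and siRpl18 in that fit. Rrp12, which takes part in export of the pre-ribosomal particles, was at 23.3 and 23.3 FPKM in siNT, 47.5 and 47.5 in siRpl11, 35.6 and 37.0 in siRpl14, 37.1 and 38.5 in siRpl18 and 39.0 and 39.4 in siRpl23. Rrp12 was at 30.4, 53.5, 44.1, 40.1 and 44.2 FPKM in the second table. All knockdown libraries lay above siNT and siRpl11 was highest in both tables. Its log2 fold changes were 1.00 ± 0.04 (2.00-fold), 0.62 ± 0.04, 0.68 ± 0.04 and 0.73 ± 0.04 (adjusted p = 3.83e-08, 7.77e-07, 3.41e-07 and 2.19e-07). Utp20, a component of the small subunit processome whose start region is shown above, was at 45.3 and 43.3 FPKM in siNT, 69.2 and 68.7 in siRpl11, 68.5 and 68.7 in siRpl14, 79.2 and 80.4 in siRpl18 and 78.8 and 76.3 in siRpl23. Utp20 was at 45.1, 65.0, 72.1, 80.0 and 73.5 FPKM in the second table. It was highest in siRpl18 and siRpl23 in both tables, with log2 fold changes of 0.83 ± 0.04 and 0.79 ± 0.04 against 0.63 ± 0.04 in siRpl11 and 0.62 ± 0.04 in siRpl14 (adjusted p = 6.22e-08, 9.66e-08, 4.61e-07 and 6.01e-07). Tsr1, a GTPase-like factor of late 40S assembly, also shown above, was at 66.2 and 65.8 FPKM in siNT, 112 and 112 in siRpl11, 78.6 and 85.3 in siRpl14, 85.0 and 88.2 in siRpl18 and 86.3 and 83.6 in siRpl23. It rose by 0.75 ± 0.05 in siRpl11 (1.69-fold, adjusted p = 3.76e-07) and by 0.31 ± 0.05, 0.39 ± 0.05 and 0.36 ± 0.05 in the others.

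Nob1, the endonuclease that makes the mature 3-prime end of 18S rRNA, was at 77.7 and 80.9 FPKM in siNT, 122 and 129.5 in siRpl11, 95.5 and 99.1 in siRpl14, 99.2 and 101 in siRpl18 and 102 and 102 in siRpl23. Nob1 was at 103, 156, 116, 118 and 117 FPKM in the second table. It rose by 0.66 ± 0.04 in siRpl11 (adjusted p = 6.8e-07) and by 0.29 ± 0.04, 0.34 ± 0.04 and 0.36 ± 0.04 in the others. Bysl, which works late in 40S maturation, was at 23.3 and 23.6 FPKM in siNT, 37.4 and 37.8 in siRpl11, 29.3 and 29.1 in siRpl14, 28.2 and 29.2 in siRpl18 and 29.6 and 29.8 in siRpl23. It rose by 0.66 ± 0.04 in siRpl11 (adjusted p = 3.75e-07) and by 0.30 ± 0.04, 0.28 ± 0.04 and 0.33 ± 0.04 in the others, although the third library of siRpl18 was -0.03 from siNT. Heatr1, a processome component that also acts in rRNA transcription, was at 68.0 and 72.2 FPKM in siNT, 97.0 and 99.8 in siRpl11, 73.6 and 75.9 in siRpl14, 71.2 and 73.1 in siRpl18 and 77.6 and 78.9 in siRpl23, and rose in siRpl11 by 0.48 ± 0.04 (adjusted p = 4.32e-06). It did not pass in siRpl14 or siRpl18 (0.09 ± 0.04 and 0.04 ± 0.04). In siRpl23 it was 0.16 ± 0.04 (adjusted p = 0.00803), lost without siNT replicate 1 (0.12, adjusted p = 0.0636), with equal quantiles (0.09, adjusted p = 0.0583) and with all 15 libraries (0.10, adjusted p = 0.0658). Ltv1, a factor of pre-40S export, rose in siRpl11 by 0.34 ± 0.05 (adjusted p = 9.07e-05; 0.11 in the third libraries). Its smaller values of 0.15 ± 0.05, 0.12 ± 0.05 and 0.21 ± 0.05 in the others (adjusted p = 0.0188, 0.0358 and 0.00245) were not called with all 15 libraries (adjusted p = 0.0603, 0.0869 and 0.093). The call in siRpl14 was also lost without siNT replicate 1 (0.0801) or siRpl14 replicate 2 (0.12), and that in siRpl18 without any of 6 libraries (both of siNT, siRpl11 and siRpl18, 0.0514 to 0.126). Nop14, Utp15, Wdr43 and Wdr75 rose in siRpl11 by 0.46 ± 0.04, 0.26 ± 0.04, 0.39 ± 0.04 and 0.51 ± 0.05, and Nat10, the cytidine acetyltransferase of 18S rRNA, was at 0.00 ± 0.05 (adjusted p = 0.94). Utp15 in siRpl11 was -0.04 in the third libraries. In siRpl14, siRpl18 and siRpl23 Utp15 did not pass (-0.04 ± 0.04, -0.08 ± 0.04 and -0.05 ± 0.04), but was -0.35, -0.36 and -0.32 in the third libraries. Wdr43 was 0.07 ± 0.04, 0.15 ± 0.04 and 0.13 ± 0.04 in siRpl14, siRpl18 and siRpl23, but -0.10, -0.01 and -0.13 in the third libraries. Wdr75 was 0.15 ± 0.05, 0.13 ± 0.05 and 0.17 ± 0.05 in the same groups, but -0.05, -0.11 and -0.15 in the third libraries.

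Of the 17 factors of 60S assembly, the subunit to which the 4 targeted proteins belong, 10 rose and 3 fell in siRpl11 (58.8% and 17.6%, median 0.22). In the others, 5 rose and 4 fell in siRpl14 (-0.04), 3 rose and 7 fell in siRpl18 (-0.06), and 4 rose and 4 fell in siRpl23 (0.01). The shares higher (29.4%, 17.6% and 23.5%) were below those of all genes (33.3%, 32.8% and 34.9%). The shares lower (23.5%, 41.2% and 23.5%) lay on both sides of those of all genes (29.5%, 34.7% and 30.8%). Some rises were lost in other fits. Nop16 and Mdn1 in siRpl14, Nip7 in siRpl18, and Wdr12 and Mdn1 in siRpl23 were not called with all 15 libraries. Nop2 in siRpl14 was not called with only the groups compared. Rrs1, which with others brings the 5S RNP with Rpl5 and Rpl11 into the pre-60S particle, was at 47.6 and 47.6 FPKM in siNT, 80.7 and 80.1 in siRpl11, 57.4 and 56.9 in siRpl14, 59.9 and 62.9 in siRpl18 and 61.4 and 58.2 in siRpl23. Rrs1 was at 72.6, 98.3, 78.2, 75 and 69.9 FPKM in the second table. It rose by 0.74 ± 0.04 in siRpl11 (1.68-fold, adjusted p = 2.4e-07) and by 0.26 ± 0.04, 0.36 ± 0.04 and 0.32 ± 0.04 in the others, while the third libraries gave 0.43, 0.11, 0.05 and -0.05. Ebna1bp2, the partner of Rrs1 in this pathway, rose by 0.54 ± 0.06 in siRpl11 and by 0.28 ± 0.06, 0.26 ± 0.06 and 0.29 ± 0.06 in the others. The genes of the PeBoW complex, which acts in maturation of the rRNAs of the large subunit, did not move together. Wdr12 rose in siRpl11 by 0.34 ± 0.05 (adjusted p = 0.000198), while Pes1 was at -0.08 ± 0.07 and Bop1 at -0.10 ± 0.04 (adjusted p = 0.329 and 0.066). Pes1 and Bop1 passed the test against siNT in 0 of the 4 knockdowns, with log2 fold changes between -0.17 and 0.04. Some alternatives called them. Pes1 was lower in siRpl23 with all 15 libraries or only the groups compared, and in siRpl14 without siRpl14 replicate 2 or either siRpl18 library. Bop1 was called in siRpl11 without siRpl11 replicate 2, and in siRpl11 and siRpl18 with equal quantiles. The rise of Wdr12 in siRpl23 (0.13 ± 0.05, adjusted p = 0.0492) was lost without any of 7 single libraries (adjusted p = 0.0593 to 0.254, the exceptions being siNT replicate 2 and both of siRpl18) and with all 15 (0.512).

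Gnl3, the GTPase nucleostemin, was at 140.1 and 138 FPKM in siNT, 177 and 165 in siRpl11, 123 and 123 in siRpl14, 123 and 121 in siRpl18 and 134 and 121 in siRpl23. Gnl3 was at 123, 137, 109, 101 and 95.9 FPKM in the second table. It rose in siRpl11 by 0.30 ± 0.05 (adjusted p = 0.000507) and fell in siRpl18 (-0.19 ± 0.05, adjusted p = 0.00886), with -0.12 ± 0.05 in siRpl23 (adjusted p = 0.0639). In siRpl14 it was -0.17 ± 0.05 (adjusted p = 0.0171), lost without siNT replicate 1 (0.0764) or either siRpl14 library (0.0601 and 0.0606). Nle1, which Mdn1 removes from the pre-60S particle, was at 25.1 and 26.2 FPKM in siNT, 32.4 and 31.9 in siRpl11, 24.7 and 22.3 in siRpl14, 22.4 and 22.6 in siRpl18 and 24.2 and 24.3 in siRpl23. It rose in siRpl11 by 0.32 ± 0.05 (adjusted p = 0.000356; 0.55 in the third libraries) and was -0.18 ± 0.05 in siRpl18 (adjusted p = 0.0108), lost without siNT replicate 2 (-0.15, adjusted p = 0.0658). Nop2, the methyltransferase NSUN1 of 28S rRNA, rose in siRpl11 by 0.26 ± 0.04 (adjusted p = 9.21e-05), and Mdn1, a very large AAA ATPase, by 0.34 ± 0.04 (adjusted p = 4.03e-05). Nop16 and Rrp15 rose in siRpl11 by 0.27 ± 0.06 and 0.22 ± 0.05. Las1l, the endonuclease that cuts the second internal spacer of the precursor, was at 59.6 and 62.2 FPKM in siNT, 58.0 and 58.9 in siRpl11, 50.9 and 52.1 in siRpl14, 52.4 and 50.9 in siRpl18 and 51.7 and 48.7 in siRpl23. It did not pass in siRpl11 (-0.06 ± 0.04, adjusted p = 0.256) and fell in siRpl14, siRpl18 and siRpl23, with log2 fold changes of -0.24 ± 0.04, -0.23 ± 0.04 and -0.28 ± 0.04 (adjusted p = 0.000931, 0.000923 and 0.000336).

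Rrp1, a nucleolar factor of 60S assembly, had the largest fall in siRpl11. It was at 99.8 and 98.3 FPKM in siNT, 73.8 and 74.6 in siRpl11, 80.8 and 84.4 in siRpl14, 74.9 and 81.4 in siRpl18 and 81.9 and 78.5 in siRpl23. Rrp1 was at 123, 101, 109.8, 118 and 109.8 FPKM in the second table, with siRpl11 lowest and siNT highest in both. Its log2 fold changes were -0.41 ± 0.05, -0.26 ± 0.05, -0.34 ± 0.05 and -0.30 ± 0.05 (adjusted p = 3.01e-05, 0.000889, 0.000131 and 0.000309). Its paralog Rrp1b fell in siRpl18 (-0.27 ± 0.05, adjusted p = 0.00118) and was -0.13 ± 0.05 in siRpl11 (adjusted p = 0.0401). That call was lost without siNT replicate 1 (0.221), siRpl11 replicate 2 (0.258) or either siRpl23 library (0.0533), and the value was 0.05 under median-ratio scaling. Sdad1, another 60S factor, fell in siRpl14, siRpl18 and siRpl23, with log2 fold changes of -0.20 ± 0.04, -0.23 ± 0.04 and -0.19 ± 0.04 (adjusted p = 0.00233, 0.000807 and 0.00252). In siRpl11 it was -0.11 ± 0.04 (adjusted p = 0.0365), lost without siNT replicate 2 (0.188), either siRpl11 library (0.142 and 0.0874) or either siRpl23 library (0.0507), and 0.07 under median-ratio scaling. Nip7 in siRpl11 (0.15 ± 0.06, adjusted p = 0.0457) was likewise lost without siNT replicate 1 (0.358), either siRpl11 library (0.0557 and 0.216) or either siRpl23 library (0.0545), and in the third library it was -0.21 from siNT. Gnl3l, the paralog of Gnl3, fell in siRpl18 (-0.25 ± 0.06, adjusted p = 0.0037) and was -0.10 ± 0.06 in siRpl11 (adjusted p = 0.157).

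**Figure D3:**
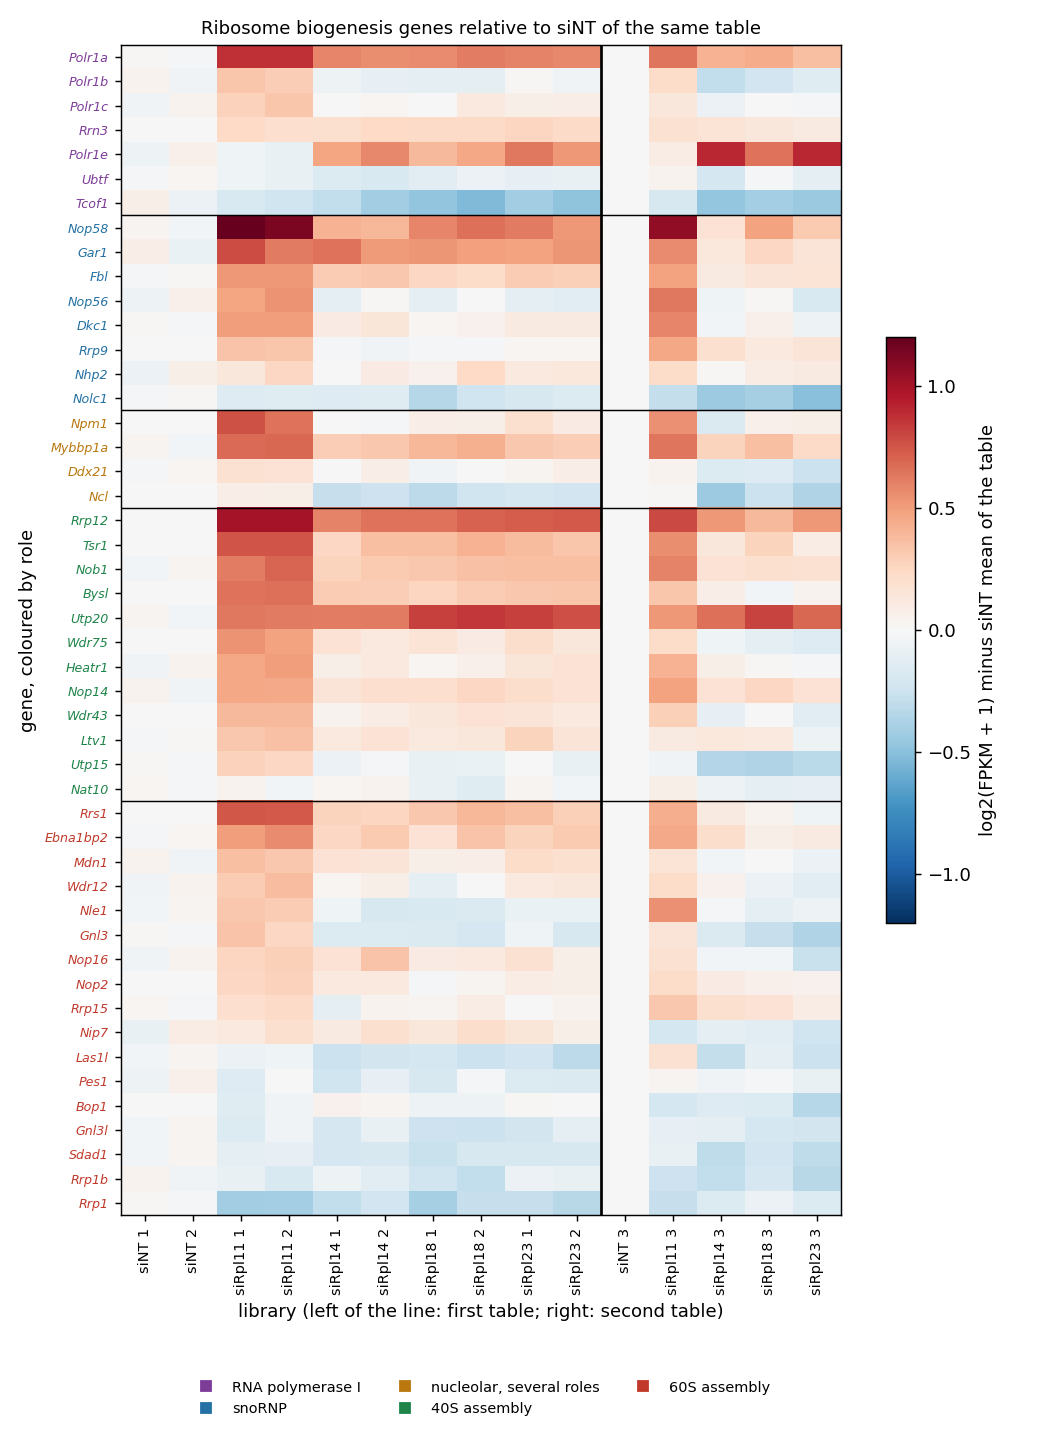
Difference of each library (columns) from the siNT mean of its table, in log2(FPKM + 1) by the colour scale, for the 48 members (rows, coloured by role); the line parts the first table from the second. Red is above and blue below siNT, and the siRpl11 columns are red for the 35 members that rose, save Utp15 and Nip7 in the third library.

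Against the mean of siRpl14, siRpl18 and siRpl23, a comparison that uses no siNT library, 34 members were higher in siRpl11, 4 were lower and 10 did not pass, beside 18.4% and 44.2% of all genes. In shares of the members this was 70.8% and 8.33%, with a median log2 difference of 0.25 over members and -0.12 over all genes. Differences of 1.5-fold or more were called higher in 2 members (1.22% of all genes) and lower in 0 (12.6%). With equal quantiles and with median-ratio scaling the all-gene median shifted by 0.16 and 0.15, and the share of higher calls among all called genes went from 29.3% to 56.1% and 55.5%. Then 36 and 44 members were higher and 3 and 1 lower. Of the 12249 genes tested, 4186 and 4379 were higher and 3275 and 3514 lower in these fits. Without scaling 2251 were higher and 5419 lower, so the counts over all genes moved as well. By role, 4 of 7 polymerase I genes were higher and 1 lower, and 6 of 8 snoRNP genes and 4 of 4 nucleolar genes were higher and 0 lower. Among assembly factors, 10 of 12 40S factors were higher and 1 lower, and 10 of 17 60S factors were higher and 2 lower. The largest differences were those of Nop58 (0.64 ± 0.04, adjusted p = 7.86e-07) and Npm1 (0.63 ± 0.05, adjusted p = 1.54e-06). Next came Nop56 (0.58 ± 0.05, adjusted p = 4.93e-06), Gnl3 (0.46 ± 0.04, adjusted p = 8.1e-06) and Nle1 (0.44 ± 0.04, adjusted p = 1.06e-05). In the third libraries, all 34 were again higher, and the member median was 0.29 against -0.12 over all genes.

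Among anchors of each role, the difference from the other knockdowns was 0.29 ± 0.03 for Polr1a, 0.38 ± 0.04 for Polr1b, 0.24 ± 0.03 for Fbl, 0.41 ± 0.03 for Dkc1 and 0.33 ± 0.03 for Ncl. It was 0.39 ± 0.03 for Heatr1, 0.33 ± 0.04 for Nob1, 0.35 ± 0.03 for Bysl, 0.43 ± 0.03 for Rrs1, 0.30 ± 0.04 for Wdr12, 0.19 ± 0.03 for Nop2 and 0.19 ± 0.04 for Las1l, each higher in siRpl11. Tcof1, which fell against siNT, was also higher in siRpl11 than in the others, by 0.22 ± 0.05 (adjusted p = 0.00257). Rrn3, Ubtf, Nhp2 and Pes1 did not pass (-0.01 ± 0.03, 0.05 ± 0.03, 0.09 ± 0.06 and 0.06 ± 0.06), which does not show that they were equal. Polr1e was lower in siRpl11 (-0.58 ± 0.05, adjusted p = 8.04e-06; -0.73 in the third libraries). The other 3 members called lower were fragile. Utp20 (-0.12 ± 0.03, adjusted p = 0.00692) was not called without siRpl11 replicate 2 (0.0589). Rrp1 (-0.11 ± 0.04, adjusted p = 0.0295) was not called without either siRpl11 library, siRpl14 replicate 2 or siRpl23 replicate 1 (0.0584 to 0.154). Bop1 (-0.09 ± 0.04, adjusted p = 0.0421) was called only without siRpl11 replicate 2 among the 10 fits that left out 1 library. All 3 turned positive under median-ratio scaling. Gar1 (0.17 ± 0.06, adjusted p = 0.0247) was not called without siRpl11 replicate 1 (0.09, adjusted p = 0.311).

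**Figure D4:**
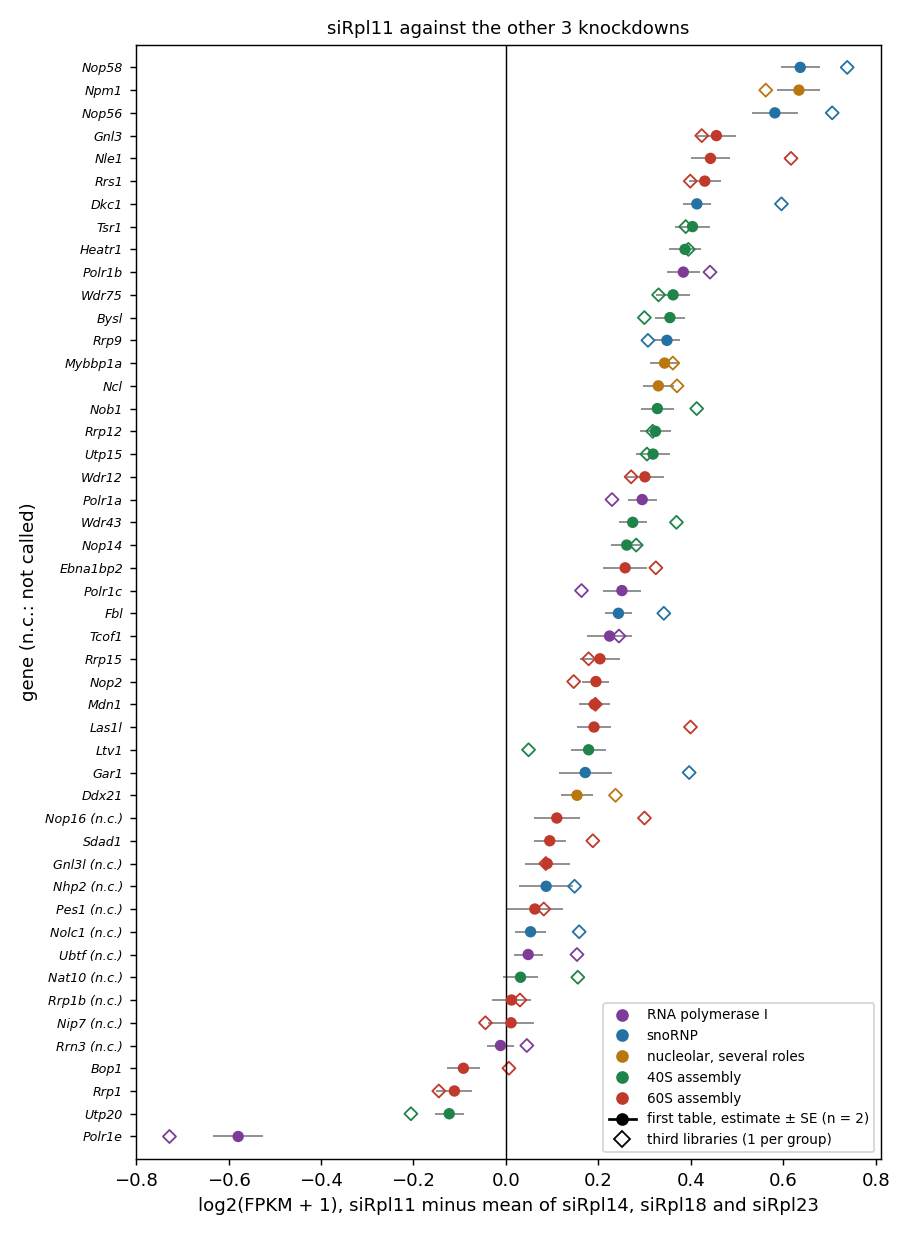
Difference in log2(FPKM + 1) between siRpl11 and the mean of siRpl14, siRpl18 and siRpl23 (horizontal axis) for each of the 48 members (vertical axis, coloured by role); filled circles with bars are estimate ± SE (n = 2) and open diamonds the third libraries. Nop58 is highest at 0.64 and Polr1e lowest at -0.58.

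Read library by library, 30 of the 48 members (62.5%) had both siRpl11 libraries above the other 8 of their table, a pattern of 13% of all genes tested. In 28 of the 30 the siRpl11 library was also the highest of the second table, and the exceptions were Utp15 and Ltv1. The reverse, both siRpl11 libraries below the other 8, was seen for Rrp1 alone (2.08% of members, 29.4% of all genes), which was also lowest in the second table.

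Differences among siRpl14, siRpl18 and siRpl23 were called in 1 of the 48 members (2.08%) by limma's moderated F test, beside 10.1% of all genes. That member was Utp20 (adjusted p = 0.0159), at 68.6 ± 0.122 FPKM (mean ± SD, n = 2) in siRpl14, 79.8 ± 0.865 in siRpl18 and 77.6 ± 1.75 in siRpl23. It was not called without siRpl14 replicate 1, siRpl14 replicate 2 or siRpl18 replicate 2, when 0 members were. Nop58 came next (adjusted p = 0.0515), at 196 ± 2.23, 227 ± 8.11 and 219.8 ± 11.4 FPKM. Other fits called more members than this: 2 with equal quantiles, 2 with all 15 libraries, 3 under median-ratio scaling and 7 with the replicate number as a block. The shares of all genes called by the F test in those fits are not given here. These counts can thus not be read as a result about the members.

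Other genes of the same pathway, 126 by a list chosen by role and with earlier results of these data known, gave 124 genes in the tables, all of which were tested. In siRpl11, 79 of the 124 rose and 17 fell (63.7% and 13.7%, beside 27.3% and 43.6% of all genes), with a median log2 fold change of 0.22 against -0.11 over all genes. The counts were 62 and 20 in siRpl14 (0.12), 60 and 33 in siRpl18 (0.10), and 67 and 20 in siRpl23 (0.15). As shares these were 50% and 16.1%, 48.4% and 26.6%, and 54% and 16.1%, beside 33.3% and 29.5%, 32.8% and 34.7%, and 34.9% and 30.8% of all genes, whose medians were 0.02, -0.02 and 0.02. Against the mean of the other knockdowns, 54 were higher in siRpl11 and 12 lower (43.5% and 9.68%, beside 18.4% and 44.2% of all genes). The median was 0.08, beside 0.25 for the 48 members and -0.12 for all genes. By role in siRpl11, 7 of 8 polymerase I genes rose and 0 fell (0.32), and 5 of 12 snoRNP genes rose and 5 fell (0.13). Of the rest, 24 of 45 40S factors rose and 7 fell (0.14), 33 of 45 60S factors rose and 4 fell (0.28), and 10 of 14 exosome genes rose and 1 fell (0.22). The order of 40S above 60S factors seen among the members was thus not seen in this list. Ccdc86, a nucleolar protein, rose in siRpl11 from 8.56 to 16.6 FPKM (0.88 ± 0.06, adjusted p = 9.57e-07), and Mak16, a pre-60S factor, from 90.8 to 159 FPKM (0.80 ± 0.04, adjusted p = 2.11e-07). Ddx55, an RNA helicase, rose there as well (0.78 ± 0.06). Ddx56, a helicase of 60S assembly, had the largest rise in siRpl14, siRpl18 and siRpl23, from 20.1 FPKM in siNT to 42.4, 48.8 and 43.3 FPKM, and also rose in siRpl11, to 34.8 FPKM. Pwp2, a processome component, was at 34.9 FPKM in siNT and rose in every knockdown, to 53.3, 56.3, 66.0 and 63.8 FPKM in siRpl11, siRpl14, siRpl18 and siRpl23. Senp3, the SUMO protease of the rixosome, had the largest fall in every knockdown, from 183 FPKM to 114, 122, 119 and 119 FPKM (adjusted p = 2.4e-07, 7.65e-07, 4.46e-07 and 4.44e-07). Nop10, a box H/ACA protein, was at 384 FPKM in siNT and fell in every knockdown, to 300.03, 259, 259 and 263 FPKM in the same order. Further falls were those of Tbl3 (-0.48 ± 0.05) and Imp3 (-0.45 ± 0.05) in siRpl11, Bms1 in siRpl14 (-0.39 ± 0.04), and Imp3 in siRpl18 (-0.44 ± 0.05) and siRpl23 (-0.39 ± 0.05), all 3 being processome components.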

How the data were processed

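The deposited values are FPKM per gene, which the authors made with STAR and Cuffnorm on mm9, per the submitters' processing notes. A stranded mRNA kit was used, per the labels' protocols. The sources used here do not give versions, annotation, use of strand or Cuffnorm's settings. The first table had 2 columns that match no sample, which were not used. Nothing in the labels ties replicates to different cultures. The p-values thus rest on the spread between libraries alone, and that spread may be technical.

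FPKM was tested as log2(FPKM + 1), which understates changes of low genes, for genes reaching 1 FPKM in 2 or more of the 10 libraries. The tool was limma 3.58.1 (R 4.3.3), with group means, contrasts, a mean-dependent trend in eBayes and 5 residual degrees of freedom, with Benjamini-Hochberg adjustment over all 12249 genes and a threshold of 0.05. The script was checked on simulated data. Relative depth was read from the steps of values between 0.005 and 0.15 FPKM. Across genes, replicates 1 and 2 had r of 0.991 to 0.996, and none was taken for a repeat of another.

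The members, the other lists and the tests were chosen with earlier results of these data known. Named were the 5 called members with the largest rise and fall per comparison, fixed anchors of each role, paralog pairs, the 3 other pathway genes with the largest rise and fall per knockdown, and the start regions of the 4 most risen members with the motif. Other members are named as part of their role. Taf1a and Noc2l were not found under these symbols. Alternatives were another pseudocount (0.1), no filter, equal quantiles, median-ratio scaling, other sets of libraries, the replicate number as a block, and leaving out each library. The reference build differs from mm9, so only RefSeq start regions carry coordinates.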

Additional observations from a re-analysis of the deposited data

How the results depend on the processing

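Of 169 member values called in the 5 comparisons, 168 kept their call with a pseudocount of 0.1, 154 without the filter, 157 with equal quantiles, 157 under median-ratio scaling, 154 with only the groups compared and 149 with all 15 libraries. Median-ratio scaling reversed 6: Nolc1 (0.031), Rrp1b (0.046) and Sdad1 (0.069) in siRpl11 against siNT, and Utp20 (0.058), Bop1 (0.088) and Rrp1 (0.070) in siRpl11 against the other knockdowns. Members lower in siRpl11 numbered 5. There were 3 when only the groups compared were fitted, 3 without the filter and 1 under median-ratio scaling. Of all genes tested, 5343 were lower in siRpl11, and 3997 under median-ratio scaling. In siRpl23, 23 were higher, and 15 with all 15 libraries (4277 and 4139 of all genes tested). There 7 were lower, and 12 with equal quantiles and 12 with all 15 libraries. Of all genes tested, 3776 were lower in siRpl23, and 4335 with equal quantiles and 3706 with all 15 libraries. Against the other knockdowns 4 members were lower in siRpl11, and 2 without the filter and 1 under median-ratio scaling. Of all genes tested, 5419 were lower in that comparison, and 3514 under median-ratio scaling. The F test among siRpl14, siRpl18 and siRpl23 called 1 member, and 2 with all 15 libraries, 3 under median-ratio scaling, 2 with equal quantiles and 7 with the replicate block. Its shares over all genes in these other fits are not given here. The cause of these shifts was not tested.

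Leaving out each library in turn kept 1584 of 1690 calls and reversed 0. The counts higher and lower ranged over 33 to 35 and 3 to 5 in siRpl11, 18 to 21 and 7 to 9 in siRpl14, 16 to 19 and 10 to 12 in siRpl18, 18 to 23 and 6 to 7 in siRpl23, 32 to 34 and 2 to 3 for siRpl11 against the others, and 0 to 1 for the F test. A group left with 1 library is assumed to vary like the others. Where the library left out was outside the groups compared, the log2 fold change stayed as it was. Such fits could not reverse a call and changed only the estimate of the spread.

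Deviations of same-numbered libraries from their group means correlated between groups with r of -0.09 to 0.19, so the numbers were not taken as pairs. That check runs over all genes, and whether some genes shared an effect of the replicate number was not tested. With the replicate block all 169 calls held, 11 members were lower in siRpl23 (4028 of all genes tested, from 3776) and the F test called 7. It also called Pes1 lower in siRpl14, siRpl18 and siRpl23 and Bop1 lower in siRpl11. Absolute depth is unknown, n is 2 per group, and small changes of members with low FPKM are the least certain.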

Other observations

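Nop56 and Nop58, which sit side by side in box C/D snoRNPs, stood in unlike proportions. In siNT the ratio of Nop56 to Nop58 FPKM was 1.71 and 1.97 in replicates 1 and 2 and 1.19 in the third library. It was 1.09 and 1.22 in siRpl11 (the third library 0.88), 1.27 and 1.41 in siRpl14 (1.01), 1.124 and 1.16 in siRpl18 (0.85), and 1.10 and 1.16 in siRpl23 (0.84). All 8 knockdown libraries of the first table lay below both siNT libraries, and so did the 4 of the second table against theirs. Both genes host small nucleolar RNAs in their introns, as background.

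For Gnl3 and its paralog Gnl3l the ratio was 3.10 and 2.89 in siNT (the third library 2.77) and 4.27 and 3.66 in siRpl11 (3.31), above the 2.84 to 3.39 of the other 6 knockdown libraries of the first table. The ratio of Rrp1 to Rrp1b was 2.57 and 2.69 in siNT and 2.08 and 2.25 in siRpl11, and the third libraries were at 3.56 and 3.51. The other 6 knockdown libraries were at 2.21 to 2.66, which overlaps siRpl11, and the other 3 of the second table at 3.93 to 4.05, above siNT. These ratios were not tested.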
